A study of Homo sapiens with 2 samples.

Results

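The 9 genes of the MHC class I antigen presentation pathway followed here in single cells were HLA-B, HLA-C, HLA-E, HLA-F, B2M, TAP1, TAPBP, PSMB9, and NLRC5. They were chosen by name, and all 9 were present among the 33538 genes of both UMI count tables. The study treated HCT116, a human colon cancer cell line, with the DNA demethylating drug decitabine (DAC) and profiled single cells by 3′ droplet scRNA-seq. Counting from seeding as day 0, DAC was given at 0.5 μM on days 1 and 3 and withdrawn on day 5, and single cells were collected on day 7. Mock-treated cells of the same line, collected on that day too, were the control. Each condition had 1 library, so there was no replicate check, no test was made between conditions, and the intervals below are 95% intervals for counting error only.

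MHC class I molecules display peptides from inside the cell to CD8+ T cells. Peptides are cut by the proteasome, in which interferon-inducible subunits can replace the constitutive ones, are carried into the endoplasmic reticulum by the TAP transporter, and are loaded with the help of tapasin onto a heavy chain bound to β2-microglobulin. Interferons induce much of this pathway, and NLRC5 is the transactivator of class I genes.

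Mock-treated cells numbered 1783, with 49911689 UMIs in total and a median of 27899 per cell, and DAC-treated cells 1751, with 59046165 and 35340, respectively. The median share of mitochondrial UMIs was 17.9% and 18.3%, and 311 and 319 cells had over 50%. The libraries shared 12 barcodes. Levels are given as CPM, in which the UMIs of a gene are scaled to a common total per library, and per-cell values after each cell was thinned to 10000 UMIs, which kept 1388 mock-treated and 1293 DAC-treated cells and left out 395 and 458 shallower ones. The 7 epithelial markers were all detected, at 5056 CPM in sum in mock-treated and 7995 CPM in DAC-treated cells. Of these, 2, KRT8 and KRT18, were 1.5-fold or more higher in DAC-treated cells, beside 31.0% of all genes with at least 100 UMIs. A further 3, EPCAM, CLDN3, and CLDN4, were 1.5-fold or more lower, beside 14.2%, with ratios of 0.636, 0.458, and 0.314. Leukocyte markers were at 0.461 and 13.3 CPM in sum, with 3 of 8 at 0 in mock-treated cells, and PTPRC, the pan-leukocyte marker, had 0 and 16 UMIs; their part in the results was not tested.

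Of the 9 genes, 7, namely HLA-B, HLA-C, HLA-E, HLA-F, TAP1, TAPBP, and PSMB9, lie in the MHC region of chromosome 6, B2M lies on chromosome 15, and NLRC5 on chromosome 16. The start of TAP1 on the minus strand and that of PSMB9 on the plus strand were 488 bases apart in the RefSeq table. Promoter sequences of 7 of the 9 genes were in that table. Those of 5 genes are shown because the UMIs of 4 of them, namely HLA-B, B2M, TAP1, and PSMB9, differed by 1.5-fold or more between DAC-treated cells with many and with few interferon-stimulated UMIs, while those of TAPBP differed by less than this, 1.48-fold, over all cells compared. HLA-C differed by 2.14-fold too and is not printed, since the numbers of its matches below were those of HLA-B. Each is the 160 bases before the start of the gene in GRCh38.p14, 5′ to 3′ on the strand of the gene. Capitals mark GAAANNGAAA or its reverse TTTCNNTTTC (an interferon-stimulated response element type of motif), TGACG or CGTCA, and CCAAT or ATTGG.
B2M (chr15:44711357-44711516, plus): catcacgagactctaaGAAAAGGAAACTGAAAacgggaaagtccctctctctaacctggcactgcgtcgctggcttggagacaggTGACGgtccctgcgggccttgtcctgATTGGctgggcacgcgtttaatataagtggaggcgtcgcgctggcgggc
TAP1 (chr6:32853705-32853864, minus): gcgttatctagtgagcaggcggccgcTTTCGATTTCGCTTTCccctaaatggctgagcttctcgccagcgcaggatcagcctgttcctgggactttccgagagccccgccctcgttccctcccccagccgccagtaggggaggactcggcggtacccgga
TAPBP (chr6:33314079-33314238, minus): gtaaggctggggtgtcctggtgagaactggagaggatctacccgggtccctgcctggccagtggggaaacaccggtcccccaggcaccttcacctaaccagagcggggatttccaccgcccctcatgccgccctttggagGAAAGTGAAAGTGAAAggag
PSMB9 (chr6:32854032-32854191, plus): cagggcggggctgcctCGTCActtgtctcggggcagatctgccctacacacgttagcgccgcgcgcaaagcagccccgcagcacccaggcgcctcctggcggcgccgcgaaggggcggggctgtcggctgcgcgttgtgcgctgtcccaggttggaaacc
HLA-B (chr6:31357180-31357339, minus): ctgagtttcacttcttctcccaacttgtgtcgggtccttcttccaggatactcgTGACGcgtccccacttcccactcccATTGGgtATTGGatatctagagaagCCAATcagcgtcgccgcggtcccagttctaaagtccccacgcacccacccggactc

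The interferon-type motif occurred as 2 overlapping matches in each of B2M, TAP1, and TAPBP and as 1 match in HLA-F, that is, in 4 of the 7 promoters at the first start listed for each gene, whereas 1.88% of the 35116 promoters of the table held it in the same window. The table listed a further start for TAP1, whose window (chr6:32852762-32852921, minus) held 0 matches of it and 10 CG dinucleotides. HLA-B had 1 TGACG and 3 CCAAT-type matches and HLA-C had the same numbers, against 16.0% and 24.5% of promoters with at least 1 match. PSMB9 had 1 TGACG-type match and none of the other letters in this window. CG dinucleotides, the bases at which DNA methylation occurs, numbered 12 in B2M, 14 in TAP1, 5 in TAPBP, 19 in PSMB9, and 10 in HLA-B, beside a median of 7 over the promoters of the table. A match is a description of letters and not a shown binding site.

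Over whole libraries, class I genes passed 1.5-fold about as often as other genes did. Of the 13547 genes with at least 100 UMIs over both libraries, 31.0% had a CPM ratio of DAC-treated over mock-treated cells of at least 1.5 and 14.2% of at most 1/1.5. All 9 class I genes passed this minimum, with 3 at 1.5-fold or higher and 0 at 1.5-fold or lower, which is near the background. Their median log2 ratio was 0.28, beside 0.24 over all genes tested, with quartiles of −0.26 and 0.72. With median-of-ratios scaling every log2 ratio was lower by 0.239, and 21.2% of all genes were then higher and 21.7% lower.

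Among the heavy chain genes, HLA-B, a classical heavy chain, had 8020 UMIs in mock-treated and 13215 in DAC-treated cells, a CPM ratio of 1.39 (1.36 to 1.43). In the 311 and 319 cells with over 50% mitochondrial UMIs its ratio was 2.20 (1.88 to 2.59). Most of the other class I genes also had a higher ratio in these cells than over whole libraries. Among them were B2M with 1.49 (1.31 to 1.68), TAPBP with 2.45 (1.91 to 3.18), and HLA-E with 1.06 (0.881 to 1.29). TAP1, with 1.96 (1.35 to 2.90), had a lower one. HLA-C, the other classical heavy chain followed here, had 12123 and 16434 UMIs and a ratio of 1.15 (1.12 to 1.17). HLA-E, a non-classical heavy chain recognized by NKG2A and NKG2C receptors of NK cells, had 3801 and 3965 UMIs and a ratio of 0.882 (0.843 to 0.922). No other of the 9 genes had a ratio below 1 at this scaling. HLA-F, a further non-classical heavy chain, had 345 and 453 UMIs and a ratio of 1.11 (0.963 to 1.28), an interval that included 1. Heavy chain genes are near copies of each other and vary between people, and the sources used here do not state how reads that match several of them were counted, so their split is uncertain.

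B2M, which encodes the light chain β2-microglobulin, had 27833 and 38048 UMIs, a ratio of 1.16 (1.14 to 1.17). When each library was divided into 3 groups of equal size by UMIs per cell, B2M was at 0.838 (0.773 to 0.907) in the cells with the fewest UMIs and at 1.15 in both other groups, so its direction depended on the depth of the cells. HLA-C, HLA-F, and B2M were thus slightly higher in CPM, but under median-of-ratios scaling their log2 ratios turned to −0.04, −0.09, and −0.03.

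TAP1, a subunit of the peptide transporter, had the highest ratio of the 9 genes, with 893 UMIs in mock-treated and 2402 in DAC-treated cells and a ratio of 2.27 (2.11 to 2.46). PSMB9, an interferon-inducible proteasome subunit, had 658 and 1457 UMIs and a ratio of 1.87 (1.71 to 2.06). TAPBP, which encodes tapasin, had 1977 and 3864 UMIs and a ratio of 1.65 (1.57 to 1.75). Relative to the median of all genes tested, the log2 ratios of these 3 genes were 0.95, 0.67, and 0.49, and they stood at or above 87.6%, 81.3%, and 75.4% of the genes. TAPBP fell short of 1.5-fold under median-of-ratios scaling, with a log2 ratio of 0.49, and TAP1 and PSMB9 did not. The GENCODE v44 gene models of TAP1 and PSMB9 overlap by 8608 bases on opposite strands, and the counting by strand is not given in the sources used here, so reads in the overlap may not be told apart. NLRC5 had 71 and 102 UMIs and a ratio of 1.21 (0.888 to 1.67), too few for a direction.

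**Figure D1:**
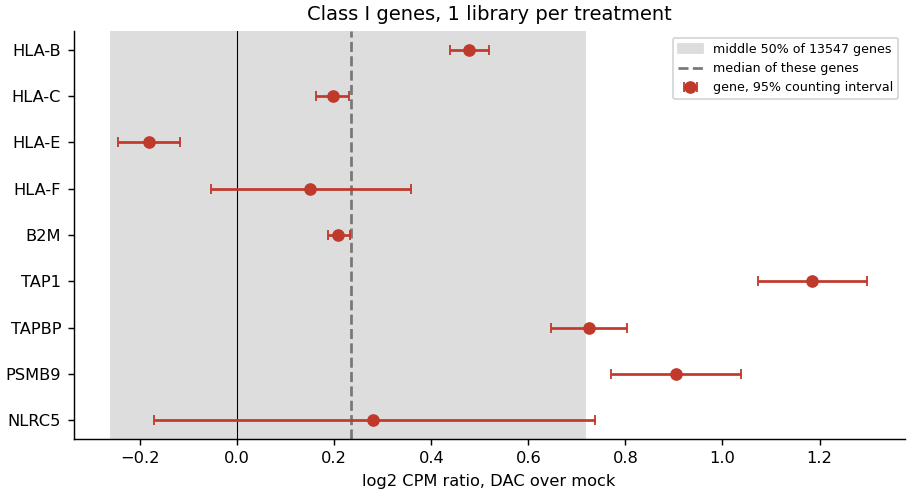
The log2 CPM ratio of DAC-treated over mock-treated cells is plotted for the 9 class I genes, with 95% counting intervals, 1 library per treatment. The grey band spans the quartiles of 13547 genes (−0.26 to 0.72) and the dashed line is their median (0.24). TAP1 and PSMB9 lie above the band, TAPBP at its upper edge, and HLA-E is the lowest.

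The share of cells with a UMI depended on depth. In all cells, HLA-B was detected in 81.0% (79.2 to 82.8) of mock-treated and 77.4% (75.4 to 79.4) of DAC-treated cells. At 10000 UMIs per cell, the order was the opposite, with 75.6% (73.3 to 77.9) and 78.3% (75.9 to 80.5), and the CPM was higher in DAC-treated cells, so no order is read from these shares. TAP1 was detected in 16.7% (14.8 to 18.8) of mock-treated and 31.0% (28.5 to 33.6) of DAC-treated cells at 10000 UMIs, and in 35.4% and 53.5% of all cells. PSMB9 was detected in 12.3% (10.6 to 14.2) and 17.5% (15.4 to 19.7) at 10000 UMIs, and in 26.0% and 31.3% of all cells. TAP1 and PSMB9 were thus detected in more DAC-treated cells at both depths. The libraries held a single cell line, so no cell type lacking these genes was available to measure free RNA.

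B2M was detected in 96.2% and 94.7% of cells at 10000 UMIs, HLA-C in 89.5% and 87.8%, HLA-E in 50.4% and 48.2%, HLA-F in 7.42% and 6.57%, and TAPBP in 36.1% and 45.2%, of mock- and DAC-treated cells, respectively. NLRC5 was detected in 17 of 1388 mock-treated and 22 of 1293 DAC-treated cells. A median of 4 of the 9 genes was detected per cell in both libraries, but 190 DAC-treated cells (14.7%) and 110 mock-treated cells (7.93%) had 6 or more. The mean was 3.855 genes in mock-treated and 4.109 in DAC-treated cells. Genes of all kinds were also detected in larger number in DAC-treated cells at this depth. Their medians were 2865 to 3069 per cell in the groups of DAC-treated cells described below, and 2752 to 2764 in those of mock-treated cells. The higher number is therefore not read as particular to class I genes.

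The per-cell levels of B2M, HLA-B, and HLA-C reached higher in DAC-treated cells, and B2M was also low in more of these cells. At 10000 UMIs per cell, the median of B2M was 5 UMIs in both libraries, while the 90th percentile was 10 in mock-treated and 13 in DAC-treated cells, the 99th percentile 16 and 26, and the highest cell 28 and 46. At its low end, the 10th percentile was 2 in mock-treated and 1 in DAC-treated cells. B2M had 3 or more UMIs in 83.0% (80.9 to 84.9) of mock-treated and 77.1% (74.7 to 79.4) of DAC-treated cells. For HLA-C, the median was 2 UMIs in both, the 90th percentile 5 and 6, and the highest cell 12 and 23. For HLA-B, the median was 1 and 2 UMIs, the 90th percentile 4 and 5, and the highest cell 8 and 24. HLA-E had the same 90th and 99th percentiles, 2 and 4 UMIs, and the same highest cell, 6 UMIs, in both libraries. The upper ranges of B2M, HLA-B, and HLA-C were longer in DAC-treated cells, and that of HLA-E was not.

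The 99th percentile of mock-treated cells was exceeded by 6.27% (5.01 to 7.73) of DAC-treated cells for HLA-B, 6.03% (4.80 to 7.47) for HLA-C, and 5.80% (4.59 to 7.22) for B2M. Because UMI counts are whole numbers, 0.504%, 1.01%, and 0.648% of the mock-treated cells themselves lay above these values. For TAP1, TAPBP, and PSMB9, the numbers were each 24 DAC-treated cells (1.86%, 1.19 to 2.75), beside 1, 2, and 1 mock-treated cells. For HLA-E they were 6 cells in each library. For comparison, the corresponding shares for 3 interferon-stimulated genes were 37.6% for IFI6, 41.2% for ISG15, and 69.8% for IFI27.

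**Figure D2:**
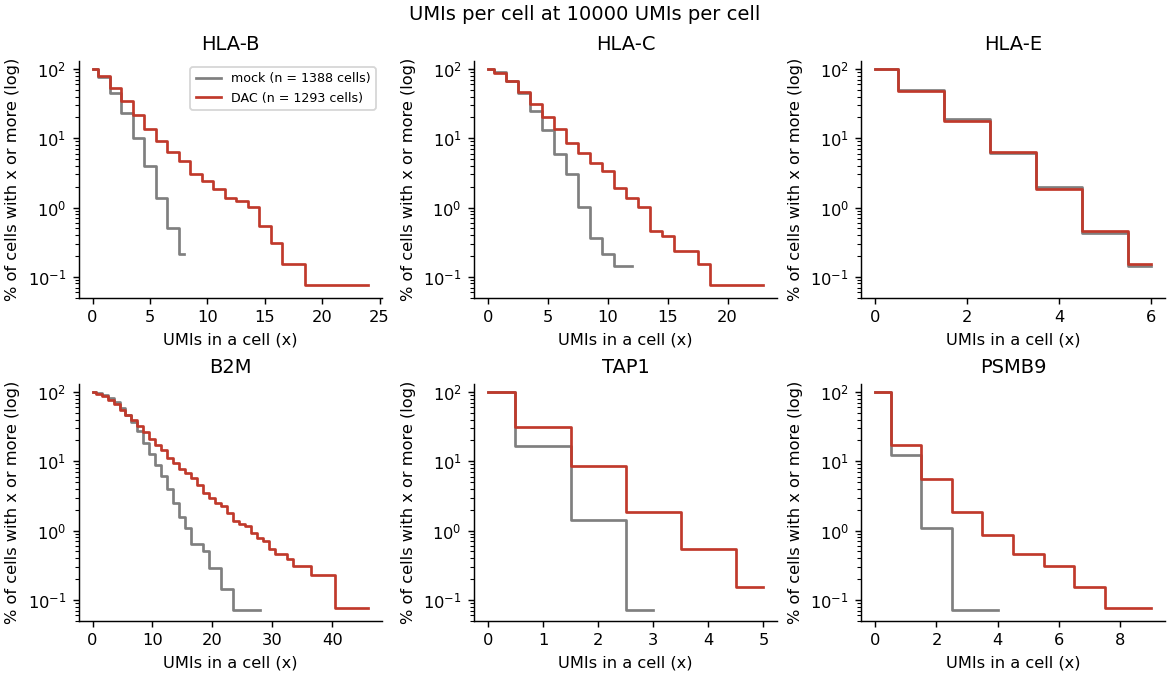
The share of cells with at least x UMIs (vertical axis, log scale) is plotted against x for 6 class I genes after each cell was thinned to 10000 UMIs, with mock-treated cells in grey (1388 cells) and DAC-treated cells in red (1293 cells). For HLA-B, HLA-C, and B2M the curves separate at the right, up to highest cells of 24, 23, and 46 UMIs in DAC-treated cells, and for HLA-E they nearly coincide.

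The variation between cells beyond sampling was measured by the squared coefficient of variation less the Poisson share. It was 0.162 in mock-treated and 0.805 in DAC-treated cells for HLA-B, 0.103 and 0.471 for HLA-C, 0.197 and 0.569 for B2M, and 0.301 and 0.382 for HLA-E. PSMB9 had the highest value among the genes with over 100 UMIs in each library after thinning, 0.577 and 3.81, and its highest cell had 4 and 9 UMIs. Variation was higher in DAC-treated cells for most genes, since over 4609 genes the medians were 0.157 and 0.311 and 80.6% were higher, so the direction is not particular to class I genes. Counting all cells at their own depth, 1203 DAC-treated cells had no PSMB9 UMI, beside 909 from an even share of its UMIs over the UMIs of the cells, while in mock-treated cells the numbers were 1320 and 1270.

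In DAC-treated cells, class I UMIs were higher in the cells with more interferon-stimulated UMIs. Cells of each library were ordered by the sum of IFI6, ISG15, and IFI27 UMIs, 3 interferon-stimulated genes whose CPM ratios were 16.9, 5.90, and 187, and divided into 3 groups of equal size, each at 10000 UMIs per cell. The median sum was 5, 16, and 48 UMIs in the lowest, middle, and highest groups of DAC-treated cells, with 431 cells in each, and 0, 2, and 4 UMIs in mock-treated cells, with 462 or 463 cells. The question was whether cells with a strong interferon-type response were also those with more class I transcripts.

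B2M had a mean of 3.95 UMIs per cell in the lowest, 5.93 in the middle, and 9.53 in the highest group of DAC-treated cells, a ratio of highest over lowest of 2.41 (2.28 to 2.56). In mock-treated cells the means were 4.95, 5.67, and 6.54, a ratio of 1.32 (1.25 to 1.39). The lowest DAC-treated group was below, and the highest above, every mock-treated group.

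HLA-C had means of 1.94, 2.72, and 4.16 UMIs in DAC-treated cells, a ratio of 2.14 (1.97 to 2.32), and of 2.40, 2.47, and 2.65 in mock-treated cells, a ratio of 1.10 (1.02 to 1.20). HLA-B had means of 1.56, 2.01, and 3.45 UMIs in DAC-treated cells, a ratio of 2.22 (2.02 to 2.43), and of 1.42, 1.68, and 1.72 in mock-treated cells, a ratio of 1.21 (1.09 to 1.34). HLA-E differed less between the groups of DAC-treated cells, with means of 0.615, 0.722, and 0.896 UMIs and a ratio of 1.46 (1.24 to 1.71), and its ratio in mock-treated cells was 1.25 (1.08 to 1.45). The groups had medians of 0, 2, and 4 interferon-stimulated UMIs in mock-treated cells and of 5, 16, and 48 in DAC-treated cells. Because these spreads differ and the intervals cover counting error only, the ratios of the libraries are not set against each other.

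In DAC-treated cells, PSMB9 had the largest ratio of the 9 genes. Its means were 0.109, 0.165, and 0.534 UMIs, from 47, 71, and 230 UMIs, a ratio of 4.89 (3.56 to 6.85), and 9.28%, 12.1%, and 31.1% of the cells had a UMI. In mock-treated cells it had 46, 46, and 96 UMIs, a ratio of 2.09 (1.46 to 3.04). TAP1 had 115, 146, and 282 UMIs in DAC-treated cells, a ratio of 2.45 (1.97 to 3.07), and 72, 77, and 104 in mock-treated cells, a ratio of 1.45 (1.06 to 1.98). TAPBP had 243, 284, and 359 UMIs in DAC-treated cells, a ratio of 1.48 (1.25 to 1.75), and 1.28 (1.05 to 1.56) in mock-treated cells. For PSMB9, TAP1, and TAPBP too, the ratios of the libraries are not set against each other.

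HLA-F had 29, 18, and 46 UMIs in the 3 groups of DAC-treated cells, a ratio of 1.59 (0.975 to 2.62). NLRC5 had 8, 5, and 9 UMIs, a ratio of 1.12 (0.385 to 3.35). Both intervals included 1. The value of HLA-F depended on the cells compared, since in DAC-treated cells with at most 20% mitochondrial UMIs it had 9, 10, and 27 UMIs, a log2 ratio of 1.59 beside 0.67, and the cause was not tested.

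Among DAC-treated cells, 5 of the 7 class I genes with at least 100 UMIs in the thinned cells were 1.5-fold or more higher in the highest group, namely HLA-B, HLA-C, B2M, TAP1, and PSMB9, beside 16.0% of 8839 genes. The median log2 ratio of the 7 genes was 1.15, and that of all genes tested was 0.23. HLA-F and NLRC5 fell under the minimum. In mock-treated cells, 1 of 8 class I genes, PSMB9, was 1.5-fold or more higher, beside 4.19% of 8552 genes. Whether the ratios differed between the libraries was not tested.

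The groups of DAC-treated cells also differed in quality. Their median mitochondrial share was 21.3%, 18.3%, and 19.0% from the lowest to the highest group, their median UMIs before thinning were 37022, 48225, and 45898, and their median number of detected genes was 2865, 3037, and 3069. Epithelial markers moved with the groups too, with 5 of 7 at 1.5-fold or more, beside 16.0% of all genes. The part of the number of detected genes in the result was not tested. When the highest and lowest cells were instead taken within 10 groups of cells with similar mitochondrial share, 7 of 7 class I genes were 1.5-fold or more higher, beside 5.27% of all genes and 3 of 7 epithelial markers. The class I median log2 ratio over the 9 genes was then 1.10, as it was without this step, but single genes moved in both directions. The log2 ratio of B2M was 0.99 with this step and 1.27 without it. That of HLA-E was 0.81 with it and 0.54 without it, and that of TAPBP 0.81 and 0.56. In the 698 DAC-treated cells with at most 20% mitochondrial UMIs, the means of B2M were 5.16, 6.42, and 9.69 UMIs and those of PSMB9 were 0.125, 0.142, and 0.608. The means of TAPBP were then 0.412, 0.601, and 0.841 and those of HLA-E 0.562, 0.708, and 0.966, so both genes passed 1.5-fold in these cells.

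**Figure D3:**
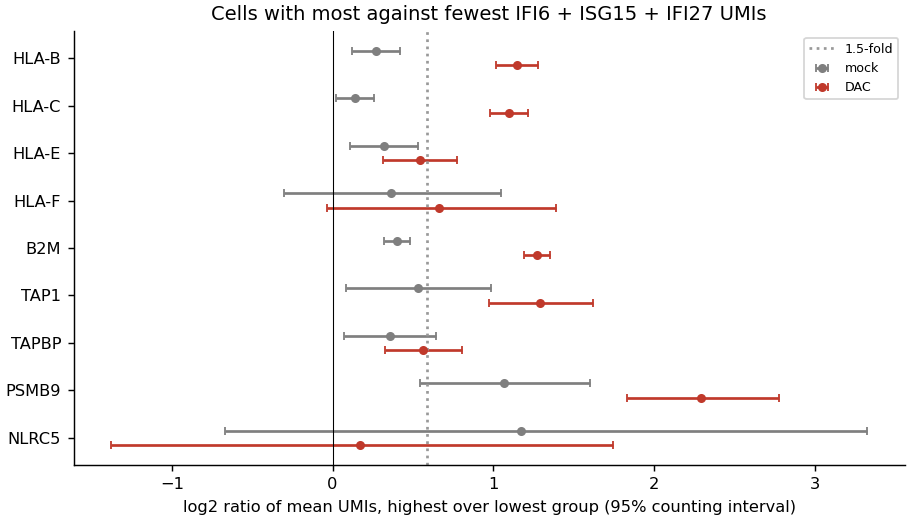
The log2 ratio of mean UMIs in the cells with the most over those with the fewest IFI6, ISG15, and IFI27 UMIs (groups of equal size, 10000 UMIs per cell) is plotted with 95% counting intervals, for mock-treated (grey) and DAC-treated (red) cells. The ratio of B2M was 2.41 in DAC-treated and 1.32 in mock-treated cells, and that of PSMB9 was 4.89 and 2.09. The intervals of NLRC5 span 0 in both.

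The difference in PSMB9 was concentrated in the upper end of the order, whereas B2M and HLA-C differed along the whole of it. Among 10 groups of DAC-treated cells, the 129 cells with the most interferon-stimulated UMIs, a median of 79, held 35.9% of all PSMB9 UMIs, with a mean of 0.969 (0.807 to 1.16), whereas the means of the first 6 groups lay between 0.0846 and 0.162. They held 20.1% of the B2M UMIs, with a mean of 13.0 (12.4 to 13.7), beside 2.59 (2.32 to 2.88) in the first and 6.57 in the sixth group. The means of HLA-C were 1.63, 2.88, and 5.56 in the same 3 groups. For HLA-B the share was 20.4%, for TAP1 19.5%, for HLA-C 18.9%, for HLA-E 15.3%, and for TAPBP 13.2%. In mock-treated cells the 138 cells with the most such UMIs, a median of 7, held 19.1% of the PSMB9 and 12.8% of the B2M UMIs.

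**Figure D4:**
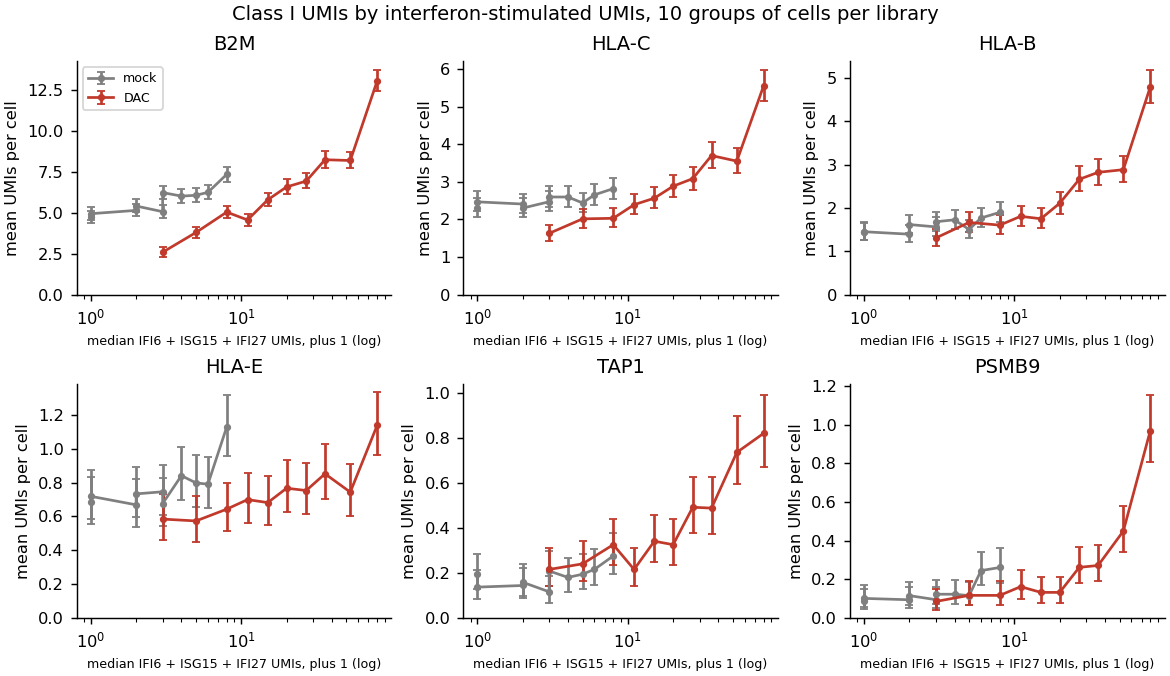
Mean UMIs per cell of 6 class I genes are plotted against the median sum of IFI6, ISG15, and IFI27 UMIs, plus 1 (log scale), in 10 groups of cells of each library at 10000 UMIs per cell, with 95% Poisson intervals. The last group of DAC-treated cells (red) reached 13.0 UMIs for B2M and 0.969 for PSMB9, and mock-treated cells (grey) end at a median of 7 interferon-stimulated UMIs.

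DAC-treated cells were then compared with mock-treated cells by whether their interferon-stimulated UMIs were within the range of mock-treated cells. The sum was above 11 UMIs, the 99th percentile in mock-treated cells, in 782 DAC-treated cells. In these, 4 of the 8 class I genes with at least 100 UMIs in the thinned cells of both libraries were 1.5-fold or more above the mean of mock-treated cells, beside 31.1% of 10655 genes. They were TAP1 with 2.93 (2.50 to 3.43), PSMB9 with 2.71 (2.25 to 3.27), HLA-B with 1.76 (1.66 to 1.87), and TAPBP with 1.76 (1.57 to 1.97). B2M was at 1.41 (1.37 to 1.46), HLA-C at 1.42 (1.35 to 1.49), and HLA-E at 1.06 (0.958 to 1.17). NLRC5 fell under the minimum.

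In the 407 DAC-treated cells between the median and the 99th percentile of mock-treated cells, B2M was at 0.780 (0.741 to 0.821) of its mean in mock-treated cells, HLA-C at 0.842 (0.780 to 0.908), and HLA-B at 1.06 (0.969 to 1.15). TAP1 was at 1.46 (1.15 to 1.83) and TAPBP at 1.38 (1.18 to 1.60) in these cells. PSMB9 was at 1.02 (0.740 to 1.38). Of these cells, 98 had over 50% mitochondrial UMIs. In the 215 with at most 20%, beside mock-treated cells filtered in the same way, B2M was at 0.899 (0.843 to 0.958) and HLA-C at 0.838 (0.756 to 0.928), while the intervals of TAP1, 1.34 (0.966 to 1.82), and TAPBP, 1.04 (0.821 to 1.30), included 1. That of HLA-E, at 0.83 (0.683 to 1.001), did too. B2M and HLA-C were thus below the mock-treated level with and without this filter, while TAPBP was near it with the filter and the interval of TAP1, at a similar ratio in fewer cells, was wider.

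In the 104 DAC-treated cells at or below the median of mock-treated cells, 2 UMIs, B2M was at 0.380 (0.331 to 0.434), HLA-C at 0.641 (0.545 to 0.748), and HLA-B at 0.725 (0.598 to 0.870), while TAPBP was at 1.04 (0.757 to 1.40). HLA-E was at 0.716 (0.540 to 0.933), PSMB9, from 5 UMIs, at 0.355 (0.114 to 0.843), and TAP1 at 0.95 (0.554 to 1.53). These cells had a median mitochondrial share of 57.2%, beside 18.7% in the 782 cells. In the 32 of them with at most 20% mitochondrial UMIs, B2M was at 0.730 (0.612 to 0.865) and HLA-B at 0.684 (0.475 to 0.956) of the mock-treated cells filtered in the same way, while the intervals of HLA-C, 0.789 (0.603 to 1.01), and TAPBP, 0.525 (0.210 to 1.09), included 1. Those of HLA-E, 0.605 (0.329 to 1.02), and of PSMB9, from 1 UMI, did too.

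Over DAC-treated cells, Spearman's rho with the interferon-stimulated sum was 0.523 for B2M, 0.394 for HLA-C, 0.312 for HLA-B, 0.272 for PSMB9, 0.236 for TAP1, 0.144 for HLA-E, and 0.142 for TAPBP (n = 1293 cells of 1 library at equal depth). Over 5567 genes with a mean of at least 0.2 UMI, the median rho was 0.06 and the 95th percentile 0.210. Over 1388 mock-treated cells, rho was 0.204 for B2M and between 0.03 and 0.110 for the other 8 genes. The sum of the 9 genes had a rho of 0.550 in DAC-treated and 0.224 in mock-treated cells. Low counts limit rho, so the values of PSMB9, TAP1, and TAPBP are not set against those of B2M.

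Some pairs of class I genes also varied together. The largest rho values between members over DAC-treated cells were 0.408 for HLA-B and B2M, 0.391 for HLA-B and HLA-C, 0.368 for HLA-C and B2M, and 0.300 for HLA-B and PSMB9. The median over the 36 pairs was 0.101 in DAC-treated and 0.0446 in mock-treated cells, and the largest value in mock-treated cells was 0.189, for HLA-C and B2M. For the 7 members with a mean of at least 0.2 UMI in DAC-treated cells, the median over 21 pairs was 0.179, beside 0.0218 over all pairs of the 5567 genes of that mean, and 5 of the 21 lay above the 99th percentile of all pairs, 0.237. In mock-treated cells, 5 members had that mean, with a median over 10 pairs of 0.0857, beside 0.0155 over all pairs of 5043 genes. Of these 10, 2 lay above the 99th percentile, 0.144, so members varied together in mock-treated cells too. In the 698 DAC-treated cells with at most 20% mitochondrial UMIs, the medians were 0.198 and 0.00216. The values of HLA-E were up to 0.224, with HLA-C. For NLRC5 they were between −0.01 and 0.07.

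**Figure D5:**
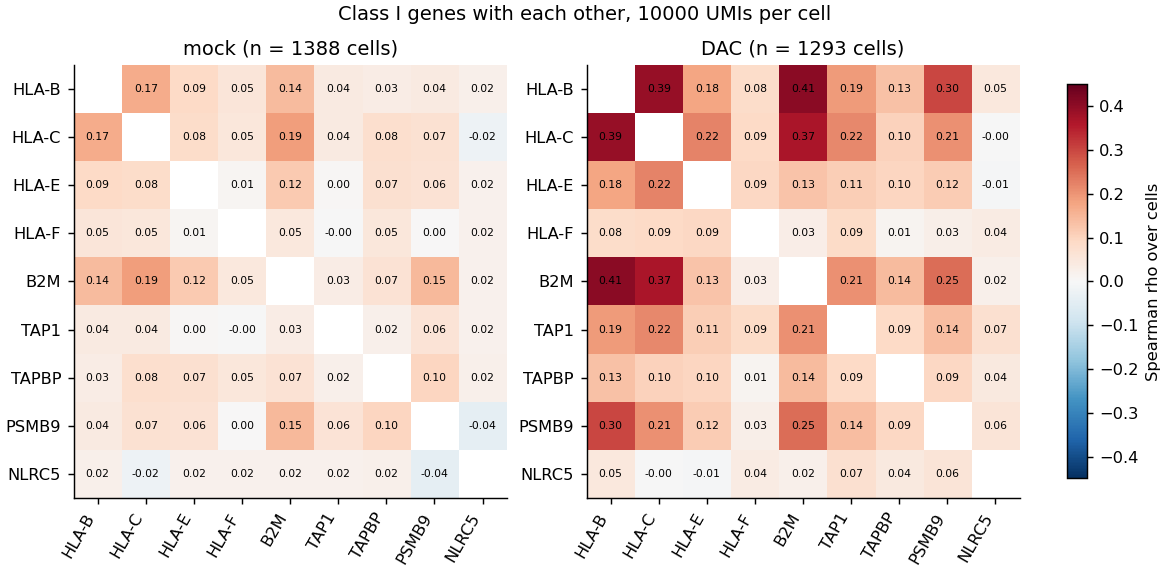
Spearman's rho over cells is shown for each pair of the 9 class I genes at 10000 UMIs per cell, for 1388 mock-treated (left) and 1293 DAC-treated (right) cells. HLA-B, HLA-C, and B2M form the darkest block in DAC-treated cells (0.368 to 0.408), and the median over the 36 pairs is 0.0446 at the left and 0.101 at the right.

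Among the 5 genes whose UMIs were most like the sum of the 9 class I genes over DAC-treated cells were IFI6 (rho of 0.541), ISG15 (0.442), IFI27 (0.432), and IFITM3 (0.430), among 5567 genes with a 99th percentile of 0.230. IFITM3 is an interferon-inducible membrane protein. Over mock-treated cells they included IFITM3 (0.280), S100A4 (0.280), CD63 (0.236), and IFI6 (0.234), with a 99th percentile of 0.175. IFITM3 and IFI6 were among the 5 in both libraries.

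Of 13 other genes of the class I pathway, 12 had at least 100 UMIs, 7 of these had a CPM ratio of 1.5 or higher, and 0 had one of 1/1.5 or lower, beside 31.0% and 14.2% of all genes, with a median log2 ratio of 0.81. PSMB8, the interferon-inducible proteasome subunit encoded next to TAP1, had the highest ratio of the 12 genes, 16 and 417 UMIs or 22.0 (13.4 to 38.9), and PSME1, a proteasome activator subunit, the lowest, 0.721 (0.696 to 0.747). PSMB10, a further interferon-inducible subunit, was at 1.89 (1.73 to 2.07) and TAP2, the partner of TAP1, at 1.84 (1.70 to 1.99). The constitutive subunits PSMB5, PSMB6, and PSMB7 were at 1.66, 1.95, and 1.87, so PSMB9 and PSMB10 did not differ from them by more than 1.5-fold. Over the groups of DAC-treated cells by interferon-stimulated UMIs, 3 of 8 of the other class I genes were 1.5-fold or more higher, beside 16.0% of all genes, among them PSME1 with 2.71 (2.33 to 3.17) and PSME2, its partner in the activator, with 2.57 (2.36 to 2.81). The constitutive subunits were at 1.44, 1.40, and 1.22 between these groups, and CANX and PDIA3, chaperones of the endoplasmic reticulum, at 0.932 and 0.991.

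Of 12 transcription regulators of class I genes, 2 had a CPM ratio of 1.5 or higher and 1 of 1/1.5 or lower, beside 31.0% and 14.2% of all genes, with a median log2 ratio of 0.23. IRF9, a transducer of interferon signals, had the highest ratio, 2.28 (1.97 to 2.64). RFXANK, a subunit of the RFX complex that binds class I and class II promoters, had 0.519 (0.485 to 0.554). Over the groups of DAC-treated cells, 4 of the 8 regulators with at least 100 UMIs were 1.5-fold or more higher, beside 16.0% of all genes. Among them, IRF1, an interferon-inducible factor, had 102, 116, and 162 UMIs, a ratio of 1.59 (1.23 to 2.06), and RFXANK had a ratio of 1.80 (1.34 to 2.42). IRF9 had 67, 31, and 72 UMIs, a ratio of 1.07 (0.760 to 1.52), which included 1.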

How the data were processed

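Raw UMI counts for each gene in each cell were deposited as whole numbers, which the authors made from the reads of 1 mock-treated and 1 DAC-treated library using Cell Ranger and hg38. The annotation release, the counting by strand, and any filter on cells are not given in the sources used here. The members and gene lists were chosen with earlier results of these data known. All deposited cells were used for UMI sums and CPM. Doublets were not called, because both partners of a doublet would be HCT116. For per-cell values, each cell with at least 10000 UMIs was thinned to 10000 UMIs at random (seed 20). Shares of all genes past 1.5-fold were taken over genes with at least 100 UMIs, and the members were counted in the same way. Ratios have exact conditional binomial, sums exact Poisson, and shares exact Clopper-Pearson 95% intervals, all for counting error only. No test was made between conditions, since cells of 1 library are not replicates. The procedures were tested on simulated data with 200 changed genes. Named genes were the 9 members, the 3 interferon-stimulated genes, the genes of the lists, and the 5 genes most like the members. Beside the highest and lowest gene of each list, further list genes were picked after their values were seen. The results of some genes under this rule are not reported here. Positions were from GENCODE v44 and promoters from RefSeq (GRCh38.p14). Python 3.11.15, NumPy 2.4.6, SciPy 1.17.1, pandas 2.3.3, and Matplotlib 3.10.9 were used.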

Additional observations from a re-analysis of the deposited data

How the results depend on the processing

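With 1 library per condition, intervals cover counting error only, and low counts left wide ones for HLA-F and NLRC5. No paired analysis was possible because each condition had 1 library. Of 252 single-gene values under the alternatives, 188 moved by less than their interval and 64 by more. The number of members past 1.5-fold was 3 and, with a limit of 2-fold, 1, beside 16.3% of all genes, and with median-of-ratios scaling 2, without TAPBP, beside 21.2%. With every cell thinned to 1007 UMIs it was 2 of 5 that reached 100 UMIs, beside 30.8%, and HLA-B was past the limit with a log2 ratio of 0.70. Between groups of DAC-treated cells, 5 of 7 members passed 1.5-fold, beside 16.0% of all genes, and over the alternatives 5 to 8, beside 5.27% to 17.6%, with 8 of 9 in cells at their own depth, beside 10.6%. Without IFI6 in the grouping, the median log2 ratio was 0.98 beside 1.10. The alternatives within cells of similar UMIs or mitochondrial share, and the pairs of genes in cells with few mitochondrial UMIs, were chosen after seeing the data. The alternative with the other interferon-stimulated genes gave 6 of 7, beside 9.66%. In mock-treated cells the number was 1, beside 4.19% of all genes. It was 3 with the other interferon-stimulated genes, beside 7.03%, and 2 in cells at their own depth, in cells with at most 20% mitochondrial UMIs, and within groups of similar UMIs, beside 7.55%, 2.48%, and 3.19%. NLRC5, with 18 UMIs in mock-treated cells, turned from a log2 ratio of 1.17 to −1.22 without ISG15 in the grouping. The causes were not tested.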

Other observations

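Other genes of antigen display included some with large ratios in either direction. Of 10 MHC class II genes, which present peptides from outside the cell, 8 had at least 100 UMIs, 4 had a CPM ratio of 1.5 or higher, and 2 of 1/1.5 or lower, beside 31.0% and 14.2% of all genes, with a median log2 ratio of 0.36. CD74, the class II invariant chain, had 14 UMIs in mock-treated and 415 in DAC-treated cells, a ratio of 25.1 (14.8 to 46.2), and HLA-DQB1 had 204 and 50 UMIs, a ratio of 0.207 (0.149 to 0.284). CIITA, the class II transactivator, had 7 and 16 UMIs. Over the groups of DAC-treated cells by interferon-stimulated UMIs, CD74 had 16, 33, and 51 UMIs, a ratio of 3.19 (1.79 to 5.99).

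Of 9 class I-like genes and ligands of NK cell receptors, 7 had at least 100 UMIs, 4 were 1.5-fold or more higher, and 3 were 1.5-fold or more lower in DAC-treated cells, beside the same shares of all genes. FCGRT, the neonatal Fc receptor heavy chain, which pairs with β2-microglobulin, had 100 and 612 UMIs, a ratio of 5.17 (4.18 to 6.46). MICA and MICB, ligands of the NKG2D receptor, were at 2.92 (2.69 to 3.17) and 4.25 (3.60 to 5.03), and ULBP1, a further NKG2D ligand, had 458 and 132 UMIs, a ratio of 0.244 (0.199 to 0.296). Between the groups of DAC-treated cells, FCGRT was at 2.22 (1.44 to 3.48), MICA at 1.58 (1.27 to 1.96), and MICB at 1.31 (0.875 to 1.98). Of 17 other interferon-stimulated genes, 15 had at least 100 UMIs and 14 of these were 1.5-fold or more higher, beside 31.0% of all genes, with a median log2 ratio of 3.07; MX1 had the highest ratio among the 15 genes, 77.2 (45.9 to 142), and IFITM3 the lowest, 1.11 (1.09 to 1.13). Of 7 fibroblast and endothelial markers, 1, COL1A1, had at least 100 UMIs, with 533 and 1112 UMIs. CD3D, a T cell marker, had 1 and 292 UMIs, and TYROBP, a myeloid and NK cell marker, had 0 and 273.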
